A study of Mus musculus with 60 samples.

Results

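The Wnt ligands, their Frizzled receptors, and the secreted proteins that inhibit or boost them form a set of 41 protein-coding mouse genes, out of 21887 in the GRCm38.p6 RefSeq gene table. Members were taken by symbol, as Wnt, Fzd, Sfrp, Dkk or Rspo followed by a number, and no measured value enters that rule. They comprise 19 Wnt, 10 Fzd, 4 Sfrp, 4 Dkk and 4 Rspo genes. Each gene was read over its body and the 10 kb on both sides, here called its window. The gene bodies had a median length of 20.8 kb, against 17.2 kb for all protein-coding genes.

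Chromatin had been profiled in the L4-L6 dorsal root ganglia, whose sensory neurons send an axon into the sciatic nerve and a branch into the spinal cord. The C57BL/6 mice were 6-8 weeks old, and ganglia were taken 24 h after 1 of 4 operations. In SNA the sciatic nerve was cut, and in Sham that nerve was exposed as a sham operation. In DCA the dorsal columns of the spinal cord were cut, and in Lam, or laminectomy, the vertebral arch was removed without axotomy. Chromatin immunoprecipitation covered H3K9ac and H3K27ac, acetylation marks of active promoters and enhancers, and H3K27me3, the mark of Polycomb repression, with 2 samples of 10 pooled mice each per mark and operation. The transposase assay ATAC, which finds accessible DNA, had 3 samples of 1 mouse each per operation. All mice had been operated on, so no group was an intact ganglion, and a ganglion is a mixture of neurons, glia and other cells.

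The authors deposited 1 peak list per assay and operation, pooled over its samples, 16 lists in all. No value therefore carries a replicate error, and no difference between operations could be tested. Numbers of peaks are given below in the order Sham, SNA, Lam and DCA, and the 2 control lists are compared with each other as a guide to how far lists differ without axotomy. Strength is the −log10 p that the authors' peak caller gave a peak, read only within its own list. Every list is part of a longer ranked one, so a region without a peak is called not listed. Within 1 mark or assay the lists also differ in length: H3K9ac lists held 50332, 74652, 50667 and 89647 peaks, H3K27ac lists 43803, 75824, 67311 and 46489, ATAC lists 153556, 174605, 158160 and 164365, and H3K27me3 lists 122953, 141635, 154055 and 90011.

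Wnt proteins are secreted, lipid-modified ligands that bind Frizzled receptors together with the co-receptors Lrp5 and Lrp6. In the canonical branch this stabilises β-catenin, which acts with TCF/LEF factors on target genes, and other branches act through planar polarity proteins, Ror and Ryk. Sfrp proteins carry a Frizzled-like domain and sequester Wnt ligands, Dkk1 and its relatives block Lrp5 and Lrp6, and R-spondins bind Lgr4 to Lgr6 and keep Frizzled receptors on the cell surface. In sensory and spinal axons the pathway is known for guidance and synapse formation in development, and many of its ligand genes are textbook Polycomb targets in differentiated cells.

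The chromatin states met in this gene set can be read from a few start sites, chosen after their values were seen. The sequences are RefSeq sequences of GRCm38.p6, printed 5′ to 3′ on the gene's own strand and ending at the base before the transcript start, with each CpG in capitals. Fzd4 and Fzd7 are receptor genes with accessible and acetylated starts. Wnt6 and the innermost start of Wnt5b are ligand starts at which H3K9ac was listed after both axotomies and in neither control. Dkk1 and Wnt16 are starts at which H3K27me3 was listed after every operation among all deposited peaks. With lists cut to equal length, neither of these 2 starts had it in all 4.
Fzd4, chr7:89404116-89404365, plus strand: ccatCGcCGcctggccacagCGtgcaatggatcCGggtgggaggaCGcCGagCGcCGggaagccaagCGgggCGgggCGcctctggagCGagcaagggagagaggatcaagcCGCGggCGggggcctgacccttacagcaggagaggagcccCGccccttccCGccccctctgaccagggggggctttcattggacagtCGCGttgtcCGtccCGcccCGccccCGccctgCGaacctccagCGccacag
Fzd7, chr1:59481897-59482146, plus strand: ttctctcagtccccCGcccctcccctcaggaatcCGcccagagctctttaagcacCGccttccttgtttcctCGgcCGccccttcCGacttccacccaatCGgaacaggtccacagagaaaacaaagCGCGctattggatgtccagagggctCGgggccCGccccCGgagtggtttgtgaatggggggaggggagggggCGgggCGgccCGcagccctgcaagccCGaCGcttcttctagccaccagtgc
Wnt6, chr1:74771642-74771891, plus strand: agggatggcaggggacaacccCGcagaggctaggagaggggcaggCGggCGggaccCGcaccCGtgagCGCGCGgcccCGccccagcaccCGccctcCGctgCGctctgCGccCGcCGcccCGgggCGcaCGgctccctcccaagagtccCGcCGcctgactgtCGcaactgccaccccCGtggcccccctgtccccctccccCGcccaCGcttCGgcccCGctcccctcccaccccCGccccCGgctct
Wnt5b, chr6:119449387-119449636, minus strand: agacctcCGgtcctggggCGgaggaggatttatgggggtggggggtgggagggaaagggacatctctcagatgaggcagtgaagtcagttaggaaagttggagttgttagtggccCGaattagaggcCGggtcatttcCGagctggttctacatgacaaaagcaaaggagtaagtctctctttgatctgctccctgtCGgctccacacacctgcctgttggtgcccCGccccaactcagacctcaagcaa
Dkk1, chr19:30549497-30549746, minus strand: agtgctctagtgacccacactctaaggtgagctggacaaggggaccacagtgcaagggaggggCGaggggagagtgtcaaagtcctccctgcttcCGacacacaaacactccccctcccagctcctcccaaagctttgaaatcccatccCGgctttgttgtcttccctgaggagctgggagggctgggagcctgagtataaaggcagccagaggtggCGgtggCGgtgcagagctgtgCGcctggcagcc
Wnt16, chr6:22287977-22288177, plus strand: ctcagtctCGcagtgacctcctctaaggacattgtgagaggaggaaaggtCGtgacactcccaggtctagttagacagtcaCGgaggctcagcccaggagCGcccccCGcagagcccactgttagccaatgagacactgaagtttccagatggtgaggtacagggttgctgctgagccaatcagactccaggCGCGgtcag
The printed sequence before the Fzd4 start holds 25 CpGs and that before the Wnt6 start 28, against 6 before Dkk1 and 7 each before Wnt16 and the inner Wnt5b start. The Wnt16 sequence was cut to 201 bases, where another transcript of the gene begins.

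At gene ends, accessibility listed after all 4 operations was common among the members and acetylation listed after all 4 was not. An end was scored when a peak lay within 1 kb of either end of the gene, since the strand of 14 members is not in the reference used. ATAC was listed at an end after all 4 operations in 32 of 41 members, or 78.0%, against a background of 61.9% of all genes. H3K9ac was listed there after all 4 operations in 8 members, or 19.5%, against 41.9% of all genes, and H3K27ac in 6, or 14.6%, against 32.1%. H3K27me3 was listed at an end after all 4 operations in 5 members, or 12.2%, against 5.30%. Single lists are given in the order Sham, SNA, Lam and DCA. H3K9ac was listed at an end in 36.6%, 31.7%, 29.3% and 61.0% of the members, beside 49.1%, 50.6%, 49.7% and 59.3% of all genes. After DCA the members were thus not below all genes in that mark. H3K27ac was listed there in 22.0%, 36.6%, 43.9% and 26.8%, beside 40.3%, 50.9%, 50.9% and 42.7%. For ATAC the shares were 92.7%, 90.2%, 80.5% and 87.8%, beside 69.4%, 71.2%, 69.5% and 70.7%. For H3K27me3 they were 65.9%, 39.0%, 75.6% and 14.6%, beside 28.6%, 23.0%, 33.4% and 12.3%. The low share of ends acetylated in all 4 lists held with lists cut to equal length and with only peaks of q at or below 1e-05. The high share of ATAC ends did not hold at that stricter q: 12 members, or 29.3%, kept an end in all 4 lists, against 44.5% of all genes.

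**Figure D1:**
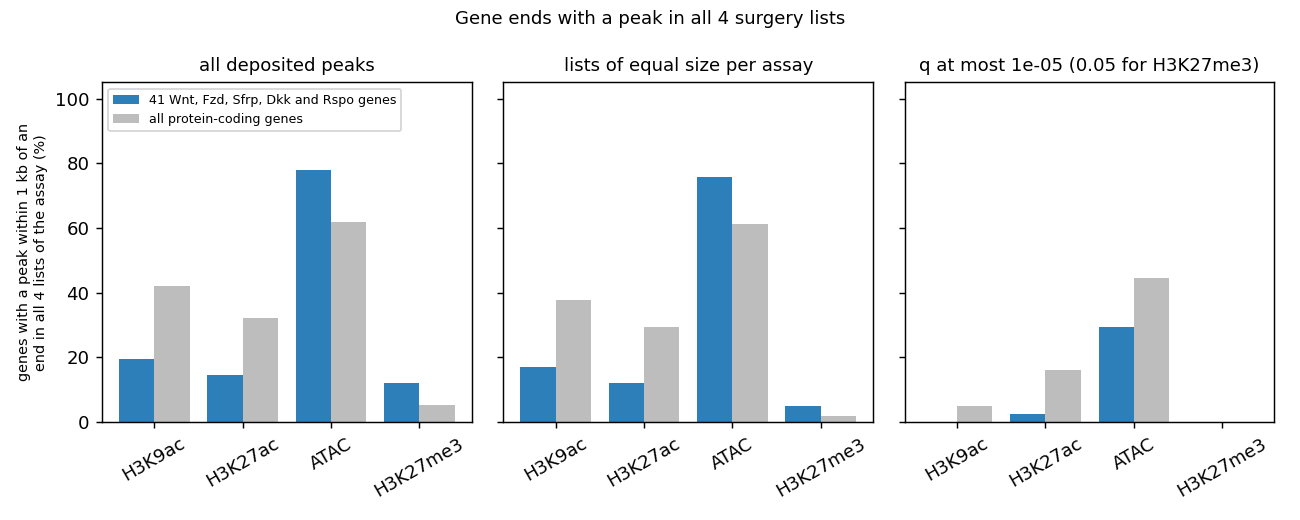
Percent of genes whose ends carried a peak at a distance of at most 1 kb after every operation, for the 41 Wnt-pathway members and for all 21887 protein-coding genes, by assay. The panels use all deposited peaks, lists of equal length, and a stricter q. Members lie below all genes for both acetylation marks, and above them for ATAC except at the stricter q.

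The families split along the same line. All 19 Wnt genes lacked an end with H3K9ac in all 4 lists, and all 19 likewise lacked one with H3K27ac, while 14 of them had ATAC at an end in all 4. Among the Frizzled receptors, Fzd1, Fzd2, Fzd3, Fzd4 and Fzd8 carried H3K9ac at an end in every list, and Fzd2, Fzd3, Fzd4 and Fzd7 carried H3K27ac. Sfrp4, a secreted Wnt inhibitor, and Dkk3, a divergent Dickkopf, carried both marks in every list, and Sfrp5 carried H3K9ac in every list. Ends with ATAC and both acetylation marks after all 4 operations were those of Fzd2, Sfrp4, Fzd3, Fzd4 and Dkk3, 5 of 41 or 12.2%, against 27.5% of all genes. Ends with ATAC after all 4 operations and no acetylation in any list were those of Wnt2, Wnt3a, Wnt7a, Wnt16, Fzd9, Fzd10, Rspo2, Rspo3 and Dkk2. That is 9 of 41 or 22.0%, against 6.40% of all genes. Each of the 9 also had H3K27me3 at an end in at least 1 list. Over all genes, 1281 of the 1401 with such unacetylated ATAC ends had it as well, so this was common to such ends. The 3 features together were met by 5.85% of all genes.

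Between 2 operations, the acetylated ends differed as follows. H3K9ac was listed at an end after DCA and not after Lam in 13 members, or 31.7%, beside 10.2% of all genes, and 9 of them were Wnt genes. The reverse was listed in 0 members, beside 0.594%. After SNA and not after Sham it was listed at Fzd5 and Rspo1, or 4.88% beside 5.44%, and the reverse at Wnt1, Wnt2b, Wnt8a and Wnt10a, or 9.76% beside 3.86%. The controls differed from each other as well: 3 members, or 7.32% beside 5.35%, had the peak in Lam and not in Sham, and 6, or 14.6% beside 4.70%, the reverse. Rspo1 was the 1 member with H3K9ac at an end after both axotomies and in neither control, or 2.44% beside 1.67%. H3K27ac was listed after SNA and not after Sham at the ends of Wnt5b, Wnt8a, Wnt9a, Wnt10b, Fzd5, Fzd6, Fzd8 and Sfrp5, 8 members or 19.5% beside 13.5%, and the reverse at 2, beside 2.83%. It was listed in Lam and not after DCA at 8 members, or 19.5% beside 10.6%, and the reverse at Sfrp1, or 2.44% beside 2.40%. Lam and not Sham had it at 9, or 22.0% beside 13.0%, and the reverse at 0, beside 2.38%. No acetylation of either mark was listed at an end in any list for 14 members, or 34.1% beside 37.0%.

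**Figure D2:**
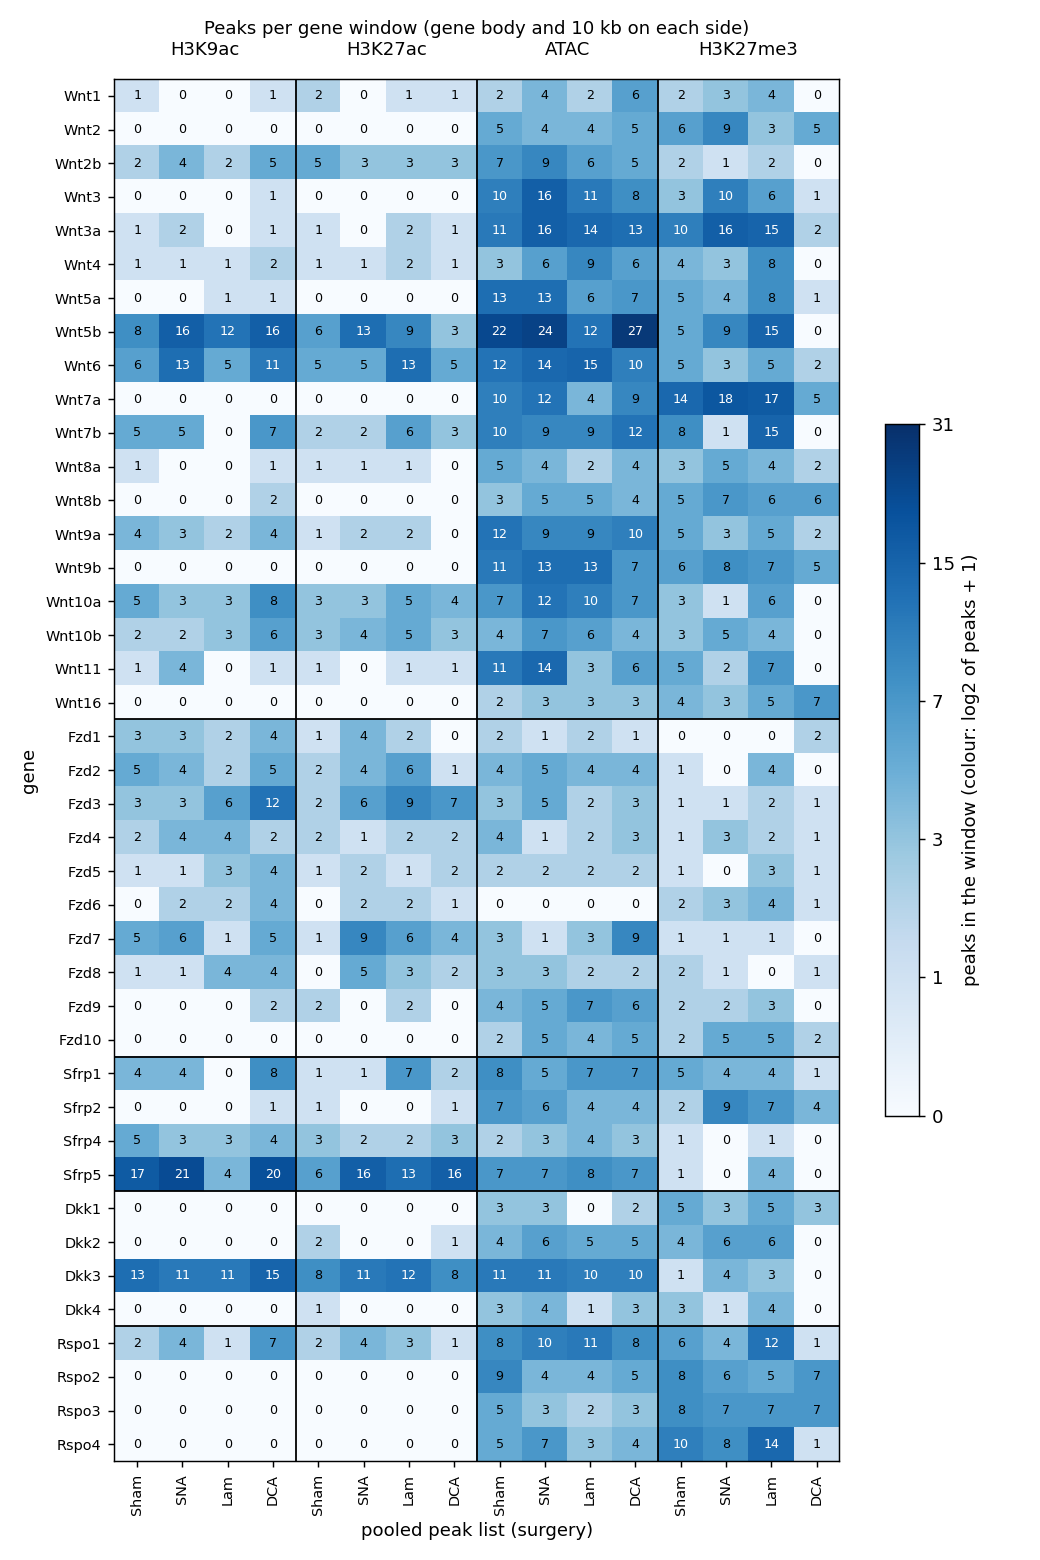
Number of listed peaks in the window of each of the 41 genes, grouped by family, in the 16 lists; colour is log2 of the number plus 1. ATAC peaks fill nearly every row, acetylation peaks gather on a few genes such as Wnt5b, Wnt6, Sfrp5 and Dkk3, and Fzd6 is the one gene with no ATAC peak in any list.

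Between each injury and its control, the longer acetylation list also held more peaks in the member windows. Between other lists this did not always hold: the Sham and Lam lists of H3K9ac are of nearly the same length, and Lam held fewer member peaks, while the SNA list of H3K27ac is longer than that of Lam and held fewer. The member windows held 96, 118, 70 and 159 H3K9ac peaks. SNA peaks were 55.1% of those of SNA and Sham together (95% Wilson interval 48.4 to 61.7), against 59.3% over all gene windows, and DCA peaks were 69.4% (63.2 to 75.0) of those of DCA and Lam, against 63.4%. Between the controls, Lam peaks were 42.2% (34.9 to 49.8) of those of Lam and Sham, against 50.1%. For H3K27ac, with 63, 101, 115 and 73 peaks, the SNA share was 61.6% (54.0 to 68.7) against 63.8%, the DCA share 38.8% (32.2 to 46.0) against 41.1%, and the Lam share of the controls 64.6% (57.3 to 71.3) against 60.9%. The 2 control lists thus differed in H3K27ac by as much as SNA and Sham did. With H3K27ac lists cut to the same length, the SNA share was 50.4% and the DCA share 48.3%, and with H3K9ac lists of one length they were 44.8% and 54.9%.

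ATAC and H3K27me3 behaved differently from each other. The windows held 253, 278, 219 and 242 ATAC peaks, with an SNA share of 52.4% (48.1 to 56.6) against 53.9% over all genes and a DCA share of 52.5% (47.9 to 57.0) against 50.2%. Between the controls, Lam peaks were 46.4% (41.9 to 50.9) of the ATAC peaks of Lam and Sham, against 52.0%. Per 100 kb of window, the members held 12.7, 14.0, 11.0 and 12.1 ATAC peaks, and all genes held 8.14, 9.51, 8.82 and 8.87. H3K27me3 intervals numbered 158, 169, 230 and 69. The SNA share of H3K27me3 was 51.7% (46.3 to 57.0) against 51.9%, and the DCA share 23.1% (18.7 to 28.2) against 32.8%. The intervals cover counting error only, since neighbouring peaks are not independent.

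**Figure D3:**
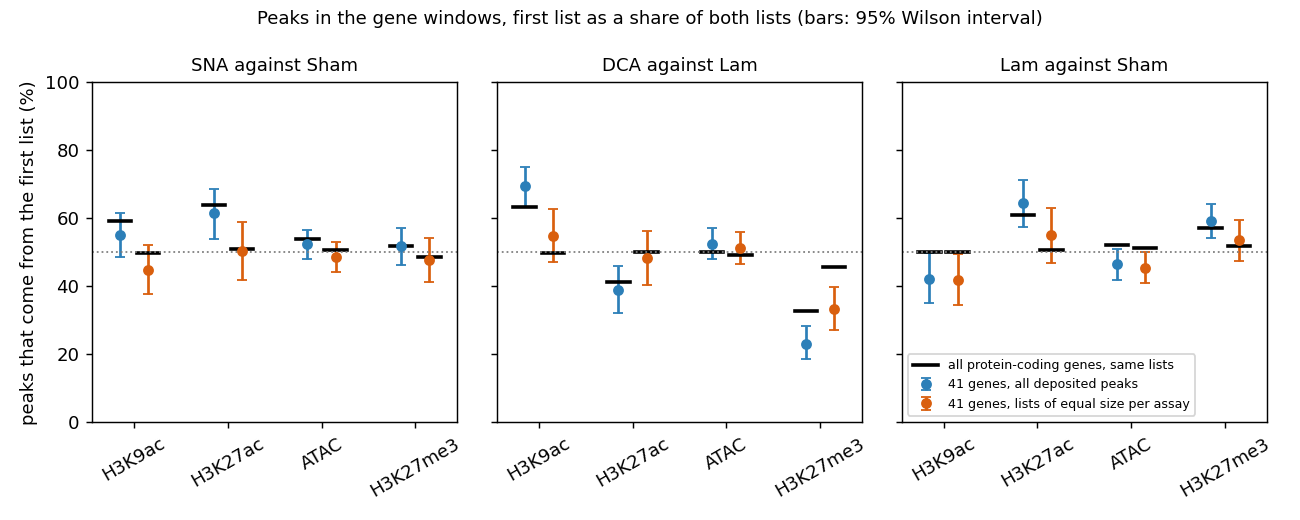
Peaks of the first list as a percent of the peaks of both lists in each comparison, by assay, for the member windows (points with 95% Wilson intervals) and for all gene windows (black ticks), with all peaks and with lists of equal length. With all peaks, the tick for all genes lies inside the interval of the members in 9 of 12 comparisons. The members are lower in the other 3, DCA against Lam in H3K27me3, at 23.1% against 32.8%, and Lam against Sham in H3K9ac, at 42.2% against 50.1%, and in ATAC, at 46.4% against 52.0%.

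For single genes, a difference was counted when the lists differed by at least 2 peaks and the log2 ratio of the numbers plus 1 was at least 1 in size. In H3K9ac, 3 of 41 members held more peaks after SNA than after Sham, beside a background of 9.30% of all genes, and 0 held fewer, beside 0.905%. After DCA, 11 members held more H3K9ac peaks than after Lam, beside 18.3%, and 0 held fewer, beside 0.717%. In H3K27ac, 7 members held more after SNA, beside 17.8%, and 3 fewer, beside 2.64%, while after DCA 0 held more, beside 1.32%, and 8 fewer, beside 10.2%. In ATAC, 1 member held more after SNA, beside 6.80%, and 3 fewer, beside 2.55%, while after DCA 6 held more, beside 4.74%, and 0 fewer, beside 3.22%. In H3K27me3, 5 held more after SNA, beside 9.45%, and 4 fewer, beside 11.9%, while after DCA 1 held more, beside 2.17%, and 26 fewer, beside 35.9%. A number of H3K27me3 intervals is not the extent of the mark. Of the 5 with more after SNA, Sfrp2 and Fzd10 had less of their window covered than after Sham, and Wnt3, Fzd4 and Dkk3 had more. Between the controls, Lam against Sham, members with more and fewer peaks numbered 3 and 5 in H3K9ac (4.97% and 4.83% of all genes), 9 and 1 in H3K27ac (12.6% and 1.42%), 1 and 8 in ATAC (5.28% and 3.92%), and 7 and 1 in H3K27me3 (17.8% and 5.25%). All 5 members with fewer H3K9ac peaks in Lam than in Sham, which were Fzd2, Fzd7, Wnt7b, Sfrp1 and Sfrp5, were also among the 11 with more in DCA than in Lam, and both comparisons use the 1 Lam list.

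Wnt6 was the 1 member that met the rule in H3K9ac after both axotomies. Wnt6 and Wnt10a, neighbours on chromosome 1 with a gap of 6.70 kb, are ligands of the canonical branch. Wnt6 held 6, 13, 5 and 11 H3K9ac peaks, so both injury lists lay above both control lists. With lists of equal length the difference was smaller and no longer met the rule, with log2 ratios of 0.36 for SNA and 0.87 for DCA. The RefSeq start of Wnt6, at chr1:74771892, lies inside the span that the gene table gives, chr1:74754342-74785322, and was covered by the H3K9ac region chr1:74771627-74773112. A peak in that region was listed after SNA with a −log10 p of 5.47 and after DCA with 6.93, and in neither control. A second H3K9ac region inside the gene, chr1:74774027-74774937, was listed after SNA at 5.61 and after DCA at 10.5, again in neither control. The same start was accessible after all 4 operations, with ATAC strengths of 8.62, 5.84, 12.5 and 6.51, and carried H3K27ac within 1 kb in Sham, SNA and Lam and not in DCA. H3K27ac over the whole Wnt6 window numbered 5, 5, 13 and 5, so the high list in that mark was Lam.

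Wnt5b, a ligand of the non-canonical branch on chr6:119432531-119544824, had the most acetylation peaks in its window of any Wnt gene. Its gene body is among the longer of the set, and Fbxl14 and Gm52875 also touch the window. The H3K9ac region chr6:119477721-119481560 and the ATAC region chr6:119478891-119481418, both in all 4 lists, lie at an end of Fbxl14. The H3K9ac peak chr6:119543644-119544335 in DCA lies at an end of Gm52875. Such peaks cannot be assigned to Wnt5b alone. Wnt5b held 8, 16, 12 and 16 H3K9ac peaks, 6, 13, 9 and 3 H3K27ac peaks and 22, 24, 12 and 27 ATAC peaks. Its H3K27ac difference after SNA did not meet the rule with lists of equal length, at a log2 ratio of 0.19, and its ATAC difference after DCA turned at the stricter threshold, to −0.32. RefSeq gives it 3 starts, and the region chr6:119448371-119449584 lay at the innermost, chr6:119449386. Among member regions it had the highest H3K27ac strength in the Sham list and in the DCA list and the second highest in the Lam list. Each within its own list, the H3K27ac strengths were 96.4 in Sham, 5.31 after SNA, and 49.1 and 50.6 in Lam and DCA, with a fold enrichment of 22.4, 3.39, 12.9 and 16.4. At that start, H3K9ac was listed after SNA at 5.44 and after DCA at 12.0, and ATAC after SNA at 6.49 and after DCA at 2.60, and neither was listed in a control. This start thus had H3K27ac in all 4 lists, and H3K9ac and ATAC only in the lists of the 2 axotomies. Of the 1000 strongest H3K27ac peaks of each list, 36.9%, 94.9%, 61.1% and 37.1% overlapped an ATAC peak of the same operation, so the strongest peaks of the SNA list lay on accessible DNA more often than those of the other lists. Its part in the values at Wnt5b was not tested.

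The H3K9ac pattern at starts was counted over all 30 RefSeq starts of the members. Peaks within 1 kb after both axotomies and in neither control were listed at 3 of them, those of Wnt6 and Rspo1 and the inner start of Wnt5b, beside 1.50% of all 21263 starts. The pattern was chosen after its values were seen. The same 3 starts had this pattern with lists of equal length, beside 0.800% of all starts. At the stricter q none of the 3 had it and Fzd7 did, 1 of 30 beside 7.46% of all starts. The reverse pattern, both controls and neither injury, was listed at 0 of 30 starts, beside 0.0800%.

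The other acetylated ligands held few peaks, and the end peaks of H3K9ac came mostly from the DCA list. H3K9ac was listed at an end in 6, 2, 2 and 11 of the 19 Wnt genes, beside 49.1%, 50.6%, 49.7% and 59.3% of all genes. Ends with H3K9ac in DCA and in no other list were those of Wnt6, Wnt8b, Wnt9a, Wnt10b, Wnt11, Sfrp1 and Sfrp2, or 17.1% of members beside 4.47% of all genes. The DCA list is also the longest H3K9ac list, with 42723 peaks at a q at or below 1e-05, against 2137, 8031 and 7108 in Sham, SNA and Lam. Wnt7b, which is expressed in the nervous system, held 5, 5, 0 and 7 H3K9ac peaks, with Lam the list apart. Wnt10b held 2, 2, 3 and 6, Wnt10a 5, 3, 3 and 8 and Wnt2b 2, 4, 2 and 5, each highest in DCA, and Wnt11 held 1, 4, 0 and 1, highest in SNA. Wnt4 held 1, 1, 1 and 2 and Wnt9a 4, 3, 2 and 4. Wnt1, Wnt3, Wnt3a, Wnt5a, Wnt8a and Wnt8b held 0 to 2 H3K9ac peaks in every list. Wnt2, Wnt7a, Wnt9b and Wnt16 had no acetylation peak of either mark in any list.

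H3K27ac regions listed in Sham, Lam and DCA and not in SNA were about as common in the member windows as over all genes. There were 9 among the 153 H3K27ac regions of the members, or 5.88%, beside 5.28% over all genes. They lay at Sfrp1, Wnt7b, Wnt4, Wnt2b, between Wnt10b and Wnt1, at Wnt3a, Wnt11, between Wnt6 and Wnt10a, and at Fzd4, and 4 of the 9 overlapped ATAC in any list. The 1 with the highest strength in Sham, chr8:23415913-23417170 in the body of Sfrp1, had a strength of 36.5 in Sham, 20.1 in Lam and 23.6 in DCA and no ATAC peak in any list. The next, chr15:85590583-85591321 in the flank of Wnt7b, had 32.3, 21.1 and 34.6. A further region beside Wnt10a, chr1:74806474-74808736, was listed in all 4 lists and was accessible in all 4. Among member regions its H3K27ac strength was the second highest in Sham, at 82.7, and the highest in Lam, at 52.8.

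Of the 19 Wnt genes, 17, 17, 15 and 15 had ATAC at an end, beside 69.4%, 71.2%, 69.5% and 70.7% of all genes. Wnt7a, a ligand of synapse formation, held 10, 12, 4 and 9 ATAC peaks, Wnt5a 13, 13, 6 and 7, and Wnt11 11, 14, 3 and 6. All 3 were lowest in Lam, so a difference of DCA from Lam at these genes is also one of Lam from Sham. Wnt3, known for its action on sensory axon arbors in the developing spinal cord, held 10, 16, 11 and 8, and Wnt3a 11, 16, 14 and 13. The strongest ATAC region listed in SNA and not in Sham was chr11:59263896-59264304 at Wnt3a, with a strength of 12.3. Of the 26 ATAC regions listed after both axotomies and in neither control, 6 lay at Wnt5b, 5 at Wnt7a, 2 at Wnt7b and 2 at Wnt11. They were 5.16% of the 504 ATAC regions of the members, beside 4.35% over all genes.

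The Frizzled receptors, the transmembrane receptors of the pathway, made up 5 of the 8 members with H3K9ac at an end in all 4 lists and 4 of the 6 with H3K27ac. List by list, H3K9ac was listed at an end in 6, 7, 7 and 8 of the 10 Fzd genes, beside 49.1%, 50.6%, 49.7% and 59.3% of all genes. H3K27ac was listed there in 5, 8, 8 and 6, beside 40.3%, 50.9%, 50.9% and 42.7%, and ATAC in 9 in every list. Their windows held 11, 33, 33 and 19 H3K27ac peaks, so SNA and Lam were equal and Sham was the low list. The log2 ratio of SNA to Sham was 1.58 and that of Lam to Sham was also 1.58. Fzd3, a receptor of the planar polarity branch in axon guidance, held 2, 6, 9 and 7 H3K27ac peaks and 3, 3, 6 and 12 H3K9ac peaks. Fzd8 held 0, 5, 3 and 2 H3K27ac peaks, Fzd1 1, 4, 2 and 0, and Fzd2 2, 4, 6 and 1. In H3K27ac, Sham or DCA was the lowest list at each of these genes, and those are the 2 shortest H3K27ac lists.

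Fzd7, on chr1:59482147-59486955, differed in each of the 3 active assays. It held 5, 6, 1 and 5 H3K9ac peaks, with Lam low. Its start region, chr1:59482097-59483810, had an H3K9ac strength of 20.2 in DCA, the highest of any member region listed in DCA and not in Lam, and of 3.63 in Sham and 2.80 in SNA. It held 1, 9, 6 and 4 H3K27ac peaks, and chr1:59485118-59485530 was the strongest H3K27ac region of the members listed in SNA and not in Sham, at a strength of 14.7 and a fold enrichment of 6.79. The H3K27ac difference of Fzd7 after SNA held with equal lengths, at a log2 ratio of 1.58, and was 0 at the stricter threshold. A region nearer the far end of the gene, chr1:59485697-59486309, was listed with H3K27ac after SNA at 4.15 and after DCA at 6.80 and in neither control. Its ATAC peaks numbered 3, 1, 3 and 9, with a start region, chr1:59481438-59484345, at strengths of 62.3, 34.5, 43.5 and 40.0. The start was thus accessible and carried H3K27ac after every operation, and the numbers of peaks around it differed between lists.

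Fzd5 and Fzd4 had the highest and second highest ATAC strengths of all member regions within each of the 4 lists. Fzd4, which serves as the receptor of norrin as well as of Wnt ligands, had a start region at chr7:89403158-89405362 with ATAC strengths of 73.3, 97.2, 86.9 and 61.7. H3K9ac at that start reached 5.80, 4.62, 4.33 and 21.9, and the region also touches an end of Tmem135, so the marks cannot be assigned to 1 of the 2 genes. Fzd5 had a start region at chr1:64736900-64738406 with ATAC strengths of 86.7, 109, 89.4 and 102. The acetylation marks at the Fzd5 start were listed in SNA, Lam and DCA and not in Sham, for H3K9ac and for H3K27ac alike. The strongest H3K27ac region of the members listed in DCA and not in Lam, chr1:64731729-64732057, lay in Fzd5, with a strength of 19.2 and a fold enrichment of 7.91.

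Fzd6, Fzd9 and Fzd10 stood apart from the other receptors. Fzd6 had no ATAC peak in any list, while 10.4% of all genes had none. Its H3K9ac peaks numbered 0, 2, 2 and 4 and its H3K27ac peaks 0, 2, 2 and 1. The region chr15:39005778-39006170 at its end was 1 of 2 H3K27ac regions in the set listed after both axotomies and in neither control, with strengths of 9.23 after SNA and 7.25 after DCA, and the other was the Fzd7 region above. Such regions were 1.31% of the members' H3K27ac regions, beside 2.36% over all genes. Close by at the same end of Fzd6, another H3K27ac region was listed in SNA and Lam, with a Lam peak at chr15:39006477-39006788 of strength 14.3. The end as a whole thus carried H3K27ac in SNA, Lam and DCA. Fzd10 had no acetylation peak in any list, ATAC at an end in all 4, and 59.1%, 51.9%, 65.2% and 10.8% of its window in H3K27me3 intervals. Fzd9 held 0, 0, 0 and 2 H3K9ac peaks and 2, 0, 2 and 0 H3K27ac peaks, with ATAC at an end in all 4 lists.

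The secreted inhibitors fell into acetylated and unacetylated genes. Sfrp5, which sequesters ligands including Wnt5a, held 17, 21, 4 and 20 H3K9ac peaks and 6, 16, 13 and 16 H3K27ac peaks in a window around a gene of a few kb, chr19:42197971-42202252. Lam was far below the other lists in H3K9ac and Sham in H3K27ac. The H3K9ac difference of DCA from Lam and the H3K27ac difference of SNA from Sham met the rule under each of the 3 alternatives tried, with log2 ratios of at least 1. The start region of Sfrp5, chr19:42200705-42202605, had H3K9ac strengths of 8.47, 6.06, 5.34 and 21.4. Sfrp4 held 5, 3, 3 and 4 H3K9ac and 3, 2, 2 and 3 H3K27ac peaks. The H3K9ac region of highest strength among the members in the Sham, SNA and DCA lists, and of second highest in Lam, lay 3250 bp from Sfrp4, at chr13:19618700-19619925, with strengths of 10.1, 20.2, 12.0 and 43.8, and that region sits at an end of the neighbouring gene Epdr1. Sfrp1 held 4, 4, 0 and 8 H3K9ac and 1, 1, 7 and 2 H3K27ac peaks, the former lowest and the latter highest in Lam. Sfrp2 held 0, 0, 0 and 1 H3K9ac peaks and had 66.2%, 39.1%, 61.1% and 13.3% of its window in H3K27me3.

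Of the Dkk genes, Dkk3 was acetylated in every list and the others held at most 2 acetylation peaks in a list. Dkk3, which binds Lrp co-receptors poorly and is often set apart from the other Dickkopf proteins, held 13, 11, 11 and 15 H3K9ac, 8, 11, 12 and 8 H3K27ac and 11, 11, 10 and 10 ATAC peaks. Its 4 lists were thus close in all 3 active assays, and it met the rule for a difference in none of them. Its H3K9ac strengths at the strongest region of each list were 8.47, 12.9, 8.94 and 15.2. Dkk1, the classical blocker of Lrp5 and Lrp6, had no acetylation peak in any list and 3, 3, 0 and 2 ATAC peaks. Its start was accessible in Sham, SNA and DCA and not listed in Lam, and chr19:30548737-30549753 was the strongest ATAC region of the members listed in DCA and not in Lam, at 12.4. Dkk2 held no H3K9ac peak and 2, 0, 0 and 1 H3K27ac peaks, and Dkk4 no H3K9ac peak and 1 H3K27ac peak, in Sham.

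Of the R-spondins, Rspo1 alone was acetylated. It held 2, 4, 1 and 7 H3K9ac, 2, 4, 3 and 1 H3K27ac and 8, 10, 11 and 8 ATAC peaks. Within 1 kb of its start, chr4:124986430, H3K9ac was listed after SNA at 4.11 and after DCA at 8.66 and in neither control. The SNA peak, chr4:124985506-124985710, did not overlap the DCA peak, chr4:124986118-124987094, which covers the start. H3K27ac was listed within 1 kb of the start in Sham at 5.11 and in Lam at 15.2 and after neither axotomy. H3K27me3 overlapped that start in Sham and Lam as well, and ATAC was listed within 1 kb of it in all 4 lists, at 6.90, 11.7, 8.31 and 5.56. The 2 acetylation marks thus had opposite patterns within 1 kb of the Rspo1 start, though not at 1 shared position. Rspo2, Rspo3 and Rspo4 had no acetylation peak in any list and ATAC peaks in every list. Rspo2 held 9, 4, 4 and 5 ATAC peaks, Rspo3 5, 3, 2 and 3, and Rspo4 5, 7, 3 and 4.

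H3K27me3 covered more of the ligand genes than of most genes after Sham, SNA and Lam. Its intervals were broad and weak: the median fold enrichment of those in member windows was 1.11, 1.13, 1.20 and 1.16, and 3 intervals in the windows, 2 at Wnt7a and 1 at Dkk4 in Sham, reached a q of 0.05. The member windows were covered over 20.4%, 13.9%, 23.6% and 4.51% of their length, against 6.91%, 6.06%, 7.91% and 3.05% for all genes. The Wnt genes were covered over 29.7%, 21.4%, 36.1% and 5.20%, the Sfrp genes over 22.8%, 9.81%, 17.6% and 3.25% and the R-spondins over 17.2%, 9.09%, 18.8% and 5.01%. Coverage of the Fzd genes, at 7.04%, 6.22%, 7.83% and 2.56%, and of the Dkk genes, at 5.94%, 4.84%, 7.87% and 4.59%, was near that of all genes. With lists of equal length the members as a set were covered over 14.3%, 9.66%, 13.6% and 4.51%. All genes were covered over 4.81%, 3.78%, 4.56% and 3.05%. The set thus stayed above all genes in each list, and DCA stayed its lowest list. The Wnt genes and the R-spondins did so too. The Sfrp genes, at 12.8%, 1.95%, 12.1% and 3.25%, were lowest in SNA and there below all genes. The Fzd genes, at 1.80%, 4.16%, 3.04% and 2.56%, lay below all genes except in SNA and were lowest in Sham. The Dkk genes, at 2.68%, 2.28%, 2.76% and 4.59%, lay below all genes except in DCA, their highest list.

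**Figure D4:**
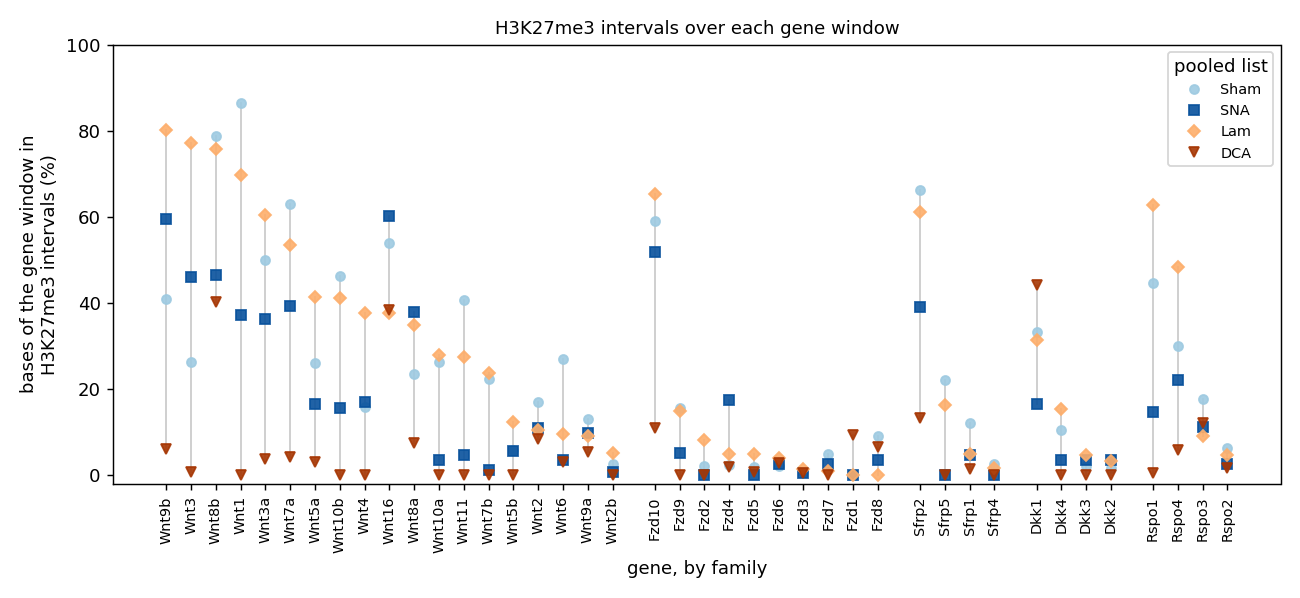
Percent of each gene's window (body and 10 kb on both sides) inside H3K27me3 intervals, with genes grouped by family and 1 mark per list. Wnt1 reaches 86.4% in Sham and 0 in DCA, while Wnt16, Wnt8b and Dkk1 lie between 38.3% and 44.0% in DCA.

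Gene by gene, coverage was lower after axotomy than in the matching control for most members. It was lower after SNA than after Sham in 31 of 41 members, or 75.6%, where 47.4% of all genes were lower, with a median difference of −6.07 percentage points for the members and 0 for all genes. It was lower after DCA than after Lam in 36 of 41, or 87.8%, where 67.2% of all genes were lower, with medians of −12.2 and −2.05 points. Coverage was higher after SNA in 9 members, or 22.0% beside 31.8% of all genes, and after DCA in 5, or 12.2% beside 12.3%. Coverage was equal in 4545 of all genes for SNA and Sham and in 4482 for DCA and Lam, against 1 and 0 members. Such ties lower the shares of all genes and draw their medians toward 0. Without ties, 10382 of all genes were lower and 6960 higher after SNA, beside 31 and 9 members. After DCA, 14707 were lower and 2698 higher, beside 36 and 5 members. The balance of members after DCA was thus near that of all genes. Between the controls, Lam was higher than Sham in 21 members, or 51.2% beside 46.7% of all genes, and lower in 19, or 46.3% beside 36.2%. Of the 19 Wnt genes, 18 were lower after DCA than after Lam, with a median difference of −27.8 points. Windows without any H3K27me3 interval numbered 1, 5, 2 and 16 of the 41. Windows with at least 1 interval were 97.6%, 87.8%, 95.1% and 61.0% of the members, beside 71.0%, 65.5%, 76.0% and 47.5% of all genes. The DCA list was the shortest and weakest of the H3K27me3 lists, with 43 intervals at a q of 0.05 over the genome against 1613, 218 and 916, and a change in the mark cannot be told apart from a difference in the quality of that list. The same limit holds for SNA against Sham, with 218 such intervals in SNA and 1613 in Sham.

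Single ligand genes showed the range of this pattern. Wnt1, an early neural ligand, was covered over 86.4%, 37.1%, 69.8% and 0%. Wnt7a was covered over 63.0%, 39.2%, 53.5% and 4.15%, and Wnt11 over 40.6%, 4.65%, 27.5% and 0%. In these genes both injury lists lay below both controls. Wnt3 was covered over 26.3%, 46.1%, 77.1% and 0.631%, and Wnt9b over 40.9%, 59.5%, 80.1% and 5.94%, so that SNA lay above Sham and Lam was the highest list. Wnt16 was covered over 54.0%, 60.1%, 37.5% and 38.3% and Wnt8b over 78.9%, 46.4%, 75.9% and 40.3%, the highest DCA values of the Wnt genes. These DCA intervals were weak. The strongest had a fold enrichment of 1.17 at Wnt16 and 1.28 at Wnt8b. No DCA interval in a member window had a −log10 q above 0. Rspo1 was covered over 44.5%, 14.5%, 62.6% and 0.555%, and Rspo4 over 30.0%, 22.1%, 48.3% and 5.85%, again low after DCA. The remaining Wnt genes had Sham values between 2.56%, at Wnt2b, and 49.9%, at Wnt3a, and DCA values of at most 8.28%, at Wnt2.

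H3K27me3 at gene ends was also listed in fewer members after axotomy. An end carried the mark in at least 1 list in 33 members, or 80.5%, beside 49.1% of all genes. It was listed at an end in 14, 11, 16 and 4 of the 19 Wnt genes, beside 28.6%, 23.0%, 33.4% and 12.3% of all genes. In 25 members, or 61.0%, it was listed in Lam and not in DCA, beside 24.6% of all genes, and in 0 the reverse, beside 3.48%. In 12, or 29.3%, it was listed in Sham and not in SNA, beside 14.6%, and in 1, Wnt4, the reverse, beside 9.0%. More members had the mark in a control to begin with, 65.9% in Sham and 75.6% in Lam, beside 28.6% and 33.4% of all genes. Of ends with the mark in Sham, those of 12 of 27 members and of 3201 of 6256 genes overall lacked it after SNA. Of ends with it in Lam, those of 25 of 31 members and of 5379 of 7305 genes overall lacked it after DCA. The mark was listed in both controls and neither injury list at the ends of Wnt5a, Wnt6, Wnt7b, Fzd6, Fzd10, Sfrp1, Sfrp5, Dkk4 and Rspo1, 9 members or 22.0% beside 6.11%. The 5 with the mark at an end in all 4 lists were Wnt8b, Wnt9b, Wnt16, Dkk1 and Rspo3. Of the H3K27me3 intervals in member windows, 39.2%, 26.0%, 31.7% and 13.0% overlapped an ATAC peak of the same operation, against 20.6%, 17.1%, 24.2% and 10.9% over all genes.

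Promoter sequence was available for 27 members, as the 250 bases before and 50 after the outermost RefSeq start. These members had a median GC content of 71% and an observed-to-expected CpG ratio of 0.810, against 56.3% and 0.577 for 17492 genes. The ratio was at least 0.6, a usual mark of a CpG island, in 22 of 27 members, or 81.5%, beside 48.4% of the 17492 genes. It reached that value in 12 of 15 Wnt genes, 6 of 6 Fzd genes and 0 of 2 Dkk genes. It was 0.327 at Dkk1, 0.345 at Wnt8b and 0.402 at Wnt16, which were the 3 members with H3K27me3 at the start in all 4 lists, and ranged from 0.499 to 1.18 in the other 24. Over all genes, 414 such starts had a median ratio of 0.439 and the other 17078 of 0.583. These counts use all deposited peaks. With lists of equal length, 0 of 30 member starts had H3K27me3 in all 4 lists, beside 0.621% of all 21263 starts. The TCF/LEF motif CTTTGAT, searched on both strands, occurred in 1 of 27 promoters, that of Wnt11, and in 3.28% of all promoters. It also occurs in the sequence before the inner start of Wnt5b printed above, where 3.22% of all 21263 starts hold it. The AP-1 motif TGANTCA occurred in 1 of 27, that of the outermost Wnt5b start, and in 7.03% of all promoters.

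Regions shared between operations were few. Merged over lists, the members had 205 H3K9ac, 153 H3K27ac, 504 ATAC and 304 H3K27me3 regions, of which 57.6%, 41.8%, 53.0% and 63.5% were in 1 list only, against 49.5%, 49.4%, 56.7% and 71.1% for all genes. Regions in all 4 lists numbered 31 in H3K9ac, or 15.1% beside 19.9%, 19 in H3K27ac, or 12.4% beside 14.7%, 68 in ATAC, or 13.5% beside 12.2%, and 21 in H3K27me3, or 6.91% beside 3.95%. Regions in both injury lists and no control list numbered 10 in H3K9ac, or 4.88% beside 8.50%, and 5 in H3K27me3, or 1.64% beside 1.82%. The H3K9ac ones include, besides those at Wnt6, Wnt5b and Rspo1, chr11:59312573-59313182 at Wnt9a, with strengths of 4.93 after SNA and 6.75 after DCA, and chr11:59263858-59264589 at Wnt3a, with 2.80 and 7.18. The Wnt3a region overlaps the ATAC region of SNA named above. Regions in both controls and no injury list numbered 0 in H3K9ac beside 0.339%, 6 in H3K27ac or 3.92% beside 2.41%, 20 in ATAC or 3.97% beside 2.64%, and 25 in H3K27me3 or 8.22% beside 4.96%. Among the H3K27ac ones, chr4:124986806-124987262 at the Rspo1 start had a strength of 15.2 in Lam. Between 10 and 15 regions per assay lay within 1 kb of an end of another gene, and 4 pairs of members share part of their windows, so their counts are not independent.

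Genes that act with the members were counted by role, over 55 genes. With the same rule, 8 of 55 held more H3K9ac peaks after SNA, beside 9.30% of all genes, and 1 fewer, beside 0.905%, and 21 held more after DCA, beside 18.3%, and 0 fewer, beside 0.717%. For H3K27ac, 18 held more after SNA, beside 17.8%, and 4 fewer, beside 2.64%, and 1 held more after DCA, beside 1.32%, and 11 fewer, beside 10.2%. Between the controls, 4 held more H3K9ac peaks in Lam than in Sham, beside 4.97%, and 8 fewer, beside 4.83%, and 14 held more H3K27ac peaks, beside 12.6%, and 1 fewer, beside 1.42%. In ATAC, 6 held more after SNA, beside 6.80%, and 0 fewer, beside 2.55%, 2 held more after DCA, beside 4.74%, and 2 fewer, beside 3.22%, and 5 held more in Lam than in Sham, beside 5.28%, and 0 fewer, beside 3.92%. In H3K27me3, 4 held more after SNA, beside 9.45%, and 16 fewer, beside 11.9%, 0 held more after DCA, beside 2.17%, and 29 fewer, beside 35.9%, and 7 held more in Lam than in Sham, beside 17.8%, and 7 fewer, beside 5.25%. Of the 9 co-receptors, Lgr4, a receptor of R-spondins, held 5, 24, 13 and 10 H3K27ac peaks and 5, 15, 8 and 20 H3K9ac peaks. Lgr5, another, held 8, 17, 16 and 5 H3K27ac and 5, 13, 3 and 9 ATAC peaks. Both were higher after SNA than after Sham in each of these, and Lam also lay above Sham except for ATAC at Lgr5. Ror2, a receptor of Wnt5a, held 6, 0, 5 and 6 H3K27ac peaks and so lacked any in SNA. Porcn and Wls, which modify and export Wnt ligands, had acetylated ends in all lists and met the rule in neither acetylation mark. Among the other inhibitors, Znrf3, which removes Frizzled from the cell surface, held 4, 21, 11 and 6 H3K27ac peaks, and Wif1 had no acetylation peak and 12, 14, 16 and 18 H3K27me3 intervals. Of the 8 nuclear effectors, Tcf7l2 held 39, 74, 65 and 33 H3K27ac and 41, 81, 42 and 78 H3K9ac peaks, and Lef1 held fewer after SNA in both marks, with 4, 1, 3 and 1 H3K27ac and 3, 1, 1 and 3 H3K9ac peaks. The target gene Axin2, commonly read as a sign of canonical signalling, held 4, 9, 7 and 5 H3K27ac and 5, 6, 5 and 10 H3K9ac peaks.

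Markers of the tissue were read in the same way. All 10 sensory neuron genes checked had ATAC at an end in every list, but H3K9ac was listed at an end in 0, 1, 0 and 2 of them and H3K27ac in 0, 0, 1 and 1. Of 8 genes of satellite glia and Schwann cells, 6, 7, 7 and 7 had H3K9ac and 6, 7, 8 and 4 H3K27ac at an end, where over all genes the H3K9ac shares lay between 49.1% and 59.3% and the H3K27ac shares between 40.3% and 50.9%. The acetylation lists thus show glial more than neuronal genes, and H3K27me3 was listed at an end of 6, 8, 8 and 4 of the 10 neuronal genes. Of 6 macrophage genes, 1, 1, 0 and 3 had H3K9ac at an end. Of the cell types foreign to the ganglion, with 6 genes each, hepatocytes had H3K9ac at an end of 0, 1, 0 and 2, skeletal muscle of 1, 2, 2 and 4, and epidermal keratinocytes of 2, 1, 2 and 3, so that for muscle the DCA share, 66.7%, lay above the 59.3% of all genes. Of the glial genes, 2 held more H3K9ac peaks after SNA, beside 9.30% of all genes, and 5 after DCA, beside 18.3%, and 4 held more H3K27ac peaks after SNA, beside 17.8%, while 2 held fewer after DCA, beside 10.2%. These are also the more frequent directions over all genes. Whether the cell make-up of the ganglion or of the pooled chromatin has a part in the values of the Wnt genes was not tested, and a peak from more cells and a peak from a stronger mark per cell cannot be told apart.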

How the data were processed

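Peak lists were analysed as the authors deposited them, 1 per assay and operation. Per the submitters' processing notes the build is mm10; the aligner and caller are not given in the sources used here. As deposited, fold enrichment is the ratio of a peak's signal to the caller's background, and −log10 p and −log10 q are those of the authors' caller. Per the labels, 24 immunoprecipitated samples, 24 inputs and 12 ATAC samples underlie the 16 lists. Read totals are not in the lists, so depth is unknown. In 16 of 16 lists the ranks in the peak names exceed the number of lines.

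Repeated ATAC intervals were collapsed to the highest −log10 p. Peaks overlapping a gene window by at least 1 bp were counted in Python 3.11.15 with pandas 2.3.3 and numpy 2.4.6. Wilson intervals (statsmodels 0.14.6, 95%) cover counting error only. Overlap counting was checked on simulated data. No exon annotation was used, so regions are placed as gene body or flank. The gene table has no strand; starts came from RefSeq promoter entries, known for 27 members and 79.9% of genes. The planned start test therefore became a test of either gene end, with known starts as an added alternative. A stricter threshold (q at or below 1e-05, or 0.05 for H3K27me3), lists of equal length, gene bodies alone, a 2.5 kb end window and 50% reciprocal overlap were the other alternatives.

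Named genes were members that differed in number of peaks between an injury and its control, had end peaks in all 4 lists, or had no acetylation peak. Named regions were the strongest in 1 list and not its partner. The members, gene lists and tests were chosen with earlier results of these data known.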

Additional observations from a re-analysis of the deposited data

Results flagged for a closer look

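The following values moved in opposite directions after the 2 axotomies, each against its own control. In each case the difference was not tested, since each operation has 1 pooled list. In H3K27ac, the injury list held 61.6% of the peaks of the pair after SNA and 38.8% after DCA, a difference of 22.8 percentage points in the member windows. Over all genes the shares were 63.8% and 41.1%, so all genes showed the contrast too. With lists of equal length it was nearly gone, at 50.4% and 48.3% in the members and 50.9% and 50.1% over all genes.

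For single genes the difference is that of the 2 log2 ratios, SNA against Sham minus DCA against Lam, of numbers of peaks plus 1. Fzd1 held 1, 4, 2 and 0 H3K27ac peaks in Sham, SNA, Lam and DCA, a difference of 2.91. Wnt5b held 6, 13, 9 and 3 H3K27ac peaks, a difference of 2.32. With lists of equal length its log2 ratio after SNA was 0.19 and no longer met the rule, and that after DCA was −1.17. Fzd7 held 3, 1, 3 and 9 ATAC peaks, a difference of −2.32. In H3K27me3, Wnt3 held 3, 10, 6 and 1 intervals, a difference of 3.27, Fzd10 held 2, 5, 5 and 2, a difference of 2, and Dkk3 held 1, 4, 3 and 0, a difference of 3.32. With equal lengths, the ratio after DCA no longer met the rule at Fzd10, at 0, or at Dkk3, at −1. These are numbers of intervals, not covered bases. The share of the Fzd10 window covered was 59.1%, 51.9%, 65.2% and 10.8%, lower after both axotomies. Coverage of Wnt3 and Dkk3 moved the same ways as their numbers.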

How the results depend on the processing

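No paired analysis was possible because each list pools the replicates, and for the same reason leaving out a replicate could not be run. Depth and replicate error are unknown, so a region that is not listed may lie just under the caller's threshold. Removing peaks at ends of other genes moved none of the 12 shares by more than its interval. Of 78 single-gene differences, 52 stayed past the rule with lists of equal length, 40 over gene bodies alone and 21 at the stricter threshold. The cause of each change below was not tested.

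Shares of the first list moved as follows. At the stricter threshold, H3K9ac gave 83.3% for SNA, 92.2% for DCA and 85.7% for Lam against Sham, which turned its direction. H3K27ac gave 49.3% for SNA, which turned its direction, and 30.9% for DCA. ATAC gave 63.3% for SNA and 62.5% for DCA, and H3K27me3 gave 0% for SNA and 0% for Lam against Sham, the latter a turn. With equal lengths, H3K9ac gave 44.8% and 54.9% for SNA and DCA, H3K27ac 50.4%, 48.3% and, for Lam against Sham, 55%, and H3K27me3 33.2% for DCA and 53.5% for Lam against Sham. An alternative chosen after seeing the data set the SNA list of H3K27ac against Lam and gave 46.8%, a turn of direction, with 0 members holding more and 5 fewer.

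Numbers of the 41 members that differed moved as follows, each with the share of all genes under the same setting in brackets. In H3K9ac, members with more peaks after SNA were 0 (8.53%) at the stricter threshold, 1 (2.92%) with equal lengths and 1 (7.20%) over bodies, and with fewer 2 (4.63%) and 1 (1.00%) in the last 2. After DCA they were 5 (4.71%) more and 1 (3.52%) fewer with equal lengths, and Lam against Sham had 0 (5.99%) more and 0 (0.123%) fewer at the stricter threshold. In H3K27ac, SNA had 2 (8.05%) more and 5 (6.31%) fewer at the stricter threshold and 7 (6.16%) fewer with equal lengths. DCA had 1 (3.11%) more and 4 (4.02%) fewer with equal lengths and 5 (7.71%) fewer over bodies, and Lam against Sham had 3 (4.41%) more with equal lengths. In ATAC, SNA had 9 (11.0%) more and 1 (0.480%) fewer at the stricter threshold and 3 (6.62%) more and 1 (2.51%) fewer over bodies, DCA had 0 (4.24%) more over bodies, and Lam against Sham had 3 fewer at the stricter threshold (2.46%) and over bodies (3.67%). In H3K27me3, SNA had 0 (0.105%) more and 1 (0.845%) fewer at the stricter threshold, 7 (13.1%) fewer with equal lengths and 2 (5.43%) more over bodies. DCA had 0 (0%) more and 0 (0.567%) fewer at the stricter threshold, 6 (7.79%) more and 17 (20.3%) fewer with equal lengths and 0 (1.17%) more over bodies. Lam against Sham had 0 (0.448%) more at the stricter threshold, 5 (9.95%) fewer with equal lengths and 0 (3.25%) fewer over bodies.

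Members with an end peak in all 4 lists numbered 0, 1, 12 and 0 in H3K9ac, H3K27ac, ATAC and H3K27me3 at the stricter threshold, beside 5.10%, 16.2%, 44.5% and 0% of all genes, and 2 for H3K27me3 with equal lengths, beside 1.91%. Within 2.5 kb they were 15, 10 and 12 for H3K9ac, H3K27ac and H3K27me3, beside 47.0%, 37.1% and 10.9%. Over known starts of 27 members they were 3, 2, 21 and 3, beside 42.3%, 31.7%, 60.5% and 2.37% of genes with a known start. Regions in all 4 lists were 1.41% (H3K9ac), 3.57% (H3K27ac) and 0% (H3K27me3) at the stricter threshold, 4.25% for H3K27me3 with equal lengths, 16.9% for ATAC over bodies, and 2.93%, 4.58%, 8.73% and 0.987% with reciprocal overlap. Regions in both injury lists alone were 10.9% for ATAC and 0% for H3K27me3 at the stricter threshold, 2.63% for H3K9ac and 3.12% for ATAC with equal lengths, and 5.23% for H3K27ac with reciprocal overlap. Regions in both control lists alone were 8.33% for H3K27ac, 0.990% for ATAC and 0% for H3K27me3 at the stricter threshold, and 2.93% for H3K9ac with reciprocal overlap. H3K27me3 coverage was 0.113%, 0%, 0% and 0% at the stricter threshold and 13.6% for Lam with equal lengths. Single genes that turned were Rspo2 and Wnt5b in ATAC at the stricter threshold, at log2 ratios of 1.58 for SNA and −0.32 for DCA, and Wnt10a in H3K27me3 over the body, at 1 for SNA.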

Other observations

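Fzd6 lies in a stretch of chromosome 15 that lists no ATAC peak, and that stretch was far longer than the gene. It spanned 486 kb in Sham, 468 kb in SNA, 423 kb in Lam and 471 kb in DCA. The part shared by the 4 lists, chr15:38728911-39144747, covers 416 kb and holds 4 genes, Baalc, Fzd6, Cthrc1 and Slc25a32. Of these 4 genes, 3 had H3K9ac at an end in each list, and 2, 2, 3 and 3 had H3K27ac in Sham, SNA, Lam and DCA. The missing ATAC peaks of Fzd6 are therefore shared with its neighbours, and whether signal or listing was missing there was not tested.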
